A study of Homo sapiens with 4 samples.

Results

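Aquaporins are membrane channels for water, and 8 genes of the family (AQP1, AQP3, AQP4, AQP5, AQP7, AQP9, AQP10 and AQP11) are described here in NCI-N87 cells, a long-established line from a human gastric carcinoma. They were taken by gene name from 1 deposited table of 60612 genes, of which 11822 were tested. RNA sequencing covered 4 libraries: in 2 the cells carried the puromycin-selectable vector PLVX-IRES-Puro-ZSCAN18, and in 2 they carried PLVX-IRES-Puro without an insert. ZSCAN18 belongs to the SCAN-domain zinc finger family, and the series addresses its part in gastric cancer cell growth. The sample records give 24 hours of transfection for both groups. Both had the vector for 5 days and puromycin for 4 of them, so transfection time and selection were shared. Each group is this 1 cell line in culture, and the labels do not say whether the libraries came from separate cultures or whether the selected cells were a pool or a clone. Any p-value therefore measures no more than the scatter among these samples, and that scatter may be technical. The ZSCAN18 columns of the table were assigned to their group by elimination, because their names match no sample title. The transgene check was plain: ZSCAN18 itself had 116 and 112 FPKM with its vector, against 0.108 and 0.144 FPKM with the empty one. FPKM count fragments per unit of transcript length and library depth, so levels can be set side by side between genes.

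Water crosses a lipid membrane slowly, and aquaporins speed its passage along osmotic gradients that ion transport sets up. The orthodox members AQP1, AQP4 and AQP5 pass mainly water. The aquaglyceroporins AQP3, AQP7, AQP9 and AQP10 also pass glycerol and other small solutes, and AQP3 is known to carry hydrogen peroxide. AQP11 is an unorthodox, mainly intracellular member. In the normal stomach AQP4 sits in the basolateral membrane of acid-secreting parietal cells and AQP5 in pyloric glands, while AQP3 lies in the basolateral membrane of many epithelia. AQP1 is the water channel of red cells, capillary endothelium and the kidney proximal tubule.

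The class of a channel can be read from its coding sequence around the asparagine-proline-alanine boxes that line the pore. The second box of the 6 members that hold 2 of them in frame is shown, read from the GENCODE release 29 transcripts (GRCh38), with the 9 bases of the box in capitals. The 2 codons after it are in lower case, and the last codon is a serine codon in AQP1, AQP4 and AQP5 and the aspartate codon gac in AQP3, AQP9 and AQP10.
AQP1: gggattAACCCTGCTcggtcc
AQP4: agcatgAATCCCGCCcgatcc
AQP5: tccatgAACCCAGCCcgctct
AQP3: gccgtcAACCCTGCCcgggac
AQP9: gccatgAACCCAGCTcgagac
AQP10: ccactcAACCCTGCCcgggac
AQP7 and AQP11 held 1 in-frame match each, and their pore boxes are known to deviate from the usual codons. The match of AQP7 began at codon 195, while the second box of AQP3, AQP9 and AQP10 began at codons 215, 216 and 214. A match alone does not make a pore box, so that of AQP7 is not read as one. The coding sequences of AQP1, AQP5 and AQP3, the members with the highest levels in NCI-N87, had 269, 265 and 292 codons.

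AQP1, AQP3 and AQP5 were the 3 aquaporins with an FPKM of 1 or more in any library, and all 3 were lower with ZSCAN18. AQP1 was lowest relative to the empty vector, at 19.7% of its mean there, followed by AQP3 at 37.6% and AQP5 at 47.6%. AQP11 stood at 95.0% and did not separate the groups, and the other 4 members were at or near the limit of the table. In bulk RNA, fewer cells that express a gene and less of its RNA per cell cannot be told apart. The members were chosen with this contrast known, so these differences, and the calls given further on, are a description and support nothing.

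AQP5 (ENSG00000161798, chromosome 12, 49961872 to 49965682, plus strand, GRCh38 coordinates) had the highest level of the family in every library. It reached 5.63 and 5.07 FPKM with ZSCAN18, against 11.7 and 10.8 FPKM with the empty vector. The groups did not overlap, and the gap of 5.14 FPKM between them was wider than the difference of 0.554 between the ZSCAN18 libraries and of 0.945 between the empty vector libraries. The means were 5.35 ± 0.392 FPKM with ZSCAN18 and 11.2 ± 0.668 FPKM with the empty vector (SD, n = 2 each), which is 2.10-fold lower with ZSCAN18. On log2(FPKM + 1) the fold change was -0.95 (SE 0.083).

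AQP3 (ENSG00000165272, chromosome 9, 33441156 to 33447596, minus strand) was the leading aquaglyceroporin. It had 1.68 and 1.66 FPKM with ZSCAN18, against 4.31 and 4.57 FPKM with the empty vector. The ZSCAN18 libraries were nearly equal, and the gap of 2.63 FPKM between the groups exceeded the difference of 0.265 between the empty vector libraries. The means were 1.67 ± 0.0121 FPKM with ZSCAN18 and 4.44 ± 0.188 FPKM with the empty vector (SD, n = 2 each), a 2.66-fold lower level with ZSCAN18. The fold change on log2(FPKM + 1) was -1.03 (SE 0.075).

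AQP1 (ENSG00000240583, chromosome 7, 30911853 to 30925516, plus strand) showed the widest relative difference. It was listed at 0.537 and 0.956 FPKM with ZSCAN18, against 3.70 and 3.86 FPKM with the empty vector. The ZSCAN18 libraries differed from each other by 0.419 FPKM, the widest relative spread among these 3 genes, and the gap between the groups was 2.75 FPKM. The means were 0.746 ± 0.296 FPKM with ZSCAN18 and 3.78 ± 0.113 FPKM with the empty vector (SD, n = 2 each), 5.07-fold lower with ZSCAN18. The fold change was -1.46 (SE 0.15) on log2(FPKM + 1), where the added 1 holds down a gene of this level. AQP1 met the filter of an FPKM of 1 in at least 2 libraries through the empty vector libraries alone, so the filter by itself favoured a gene lower with ZSCAN18, and its count below supports nothing.

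**Figure D1:**
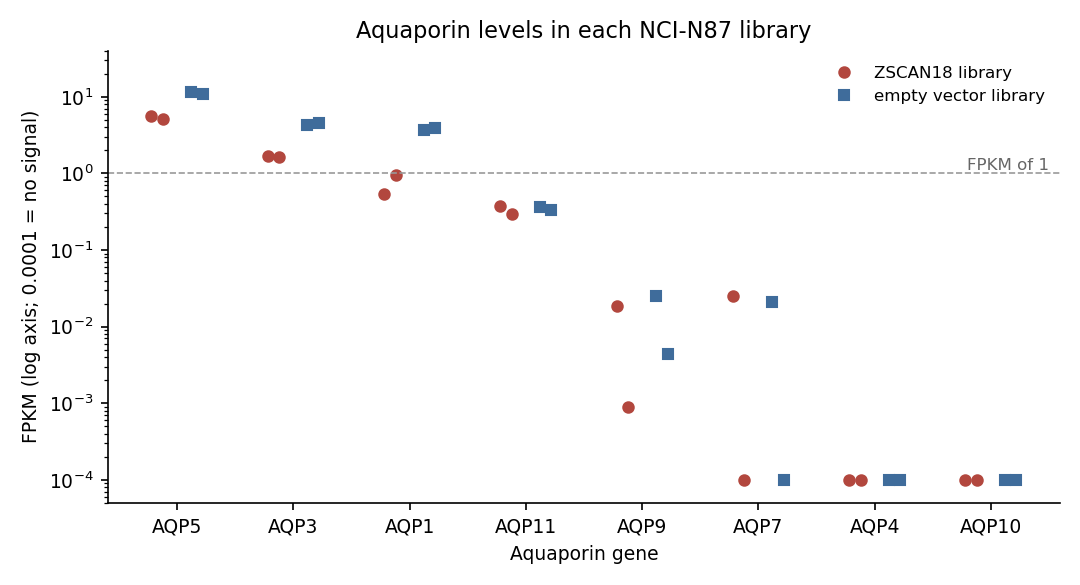
FPKM of each of the 8 aquaporins (log axis, 0.0001 standing for no signal) with circles for the 2 ZSCAN18 libraries and squares for the 2 empty vector libraries; the dashed line marks an FPKM of 1. The groups are apart for AQP5, AQP3 and AQP1, while AQP11 lies between 0.291 and 0.374 in all libraries. AQP9 and AQP7 reach at most 0.0254 and 0.0247, and AQP4 and AQP10 lie at no signal near the bottom.

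Counting precision is limited at these levels. The deposited values could not be turned back into whole fragments, and depth was only estimated, at about 23200000 fragments in both ZSCAN18 libraries, against 23900000 and 24700000 with the empty vector. At the lowest of these depths, the lower ZSCAN18 value of AQP1 would rest on about 13 to 36 fragments, depending on whether its shortest or longest complete coding transcript (1009 or 2913 bases) was expressed. The lowest value of AQP3 would rest on about 35 to 72 fragments. That of AQP5, which has 1 such transcript of 1450 bases, would rest on about 171. At its lowest value AQP1 would therefore rest on the fewest fragments of the 3, though its range touches that of AQP3. At their highest values AQP1 would rest on about 90 to 261 fragments and AQP3 on about 98 to 199, so their order is open there.

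AQP11 (ENSG00000178301, chromosome 11, 77589391 to 77610356) had an FPKM of 0.374 and 0.291 with ZSCAN18, against 0.370 and 0.330 with the empty vector. One ZSCAN18 value lay above both empty vector values and the other below both, so the groups overlapped. The gene overlaps CLNS1A, a chloride channel regulator on the opposite strand, which had 18.2 and 19.2 FPKM with ZSCAN18, against 20.9 and 18.1 FPKM with the empty vector. The use of strand in counting is not stated in the labels or headers. Without it, reads cannot be told apart where the exons of such partners overlap, and whether they do was not tested.

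AQP9, a glycerol and solute channel of liver and leukocytes, was listed at 0.0187 and 0.000883 FPKM with ZSCAN18, against at 0.0254 and 0.00437 FPKM with the empty vector. AQP7, the glycerol exit channel of fat cells, was listed at 0.0247 FPKM and no signal with ZSCAN18 and at 0.0209 FPKM and no signal with the empty vector. Their ranges overlapped each other and overlapped between the groups, so no order of these 2 genes can be given. AQP7 has near-identical pseudogene copies, of which AQP7P1 and AQP7P4 were listed at 0.0001 and 0.0434 and at 0.0496 and 0.0314 FPKM with ZSCAN18, against 0.0206 and 0.0332 and 0.0473 and 0.0001 FPKM with the empty vector, so even these traces are uncertain. AQP4 and AQP10, an intestinal aquaglyceroporin, had no signal in any of the 4 libraries. Of the 6 further channel genes of the family, AQP2, AQP12A and AQP12B had no signal either, MIP and AQP6 reached at most 0.0913 and 0.0763 FPKM in any library, and AQP8, a channel of intestine and liver, was at 0.359 and 0.0305 FPKM with ZSCAN18, against no signal and 0.0288 FPKM with the empty vector. The AQP8 value of 0.359 FPKM came from the first ZSCAN18 library alone.

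In the order of levels, AQP5 came before AQP3, AQP3 before AQP1 and AQP1 before AQP11 in both groups, with no overlap between neighbours in this order. The FPKM of AQP5 was 3.36 and 3.06 times that of AQP3 with ZSCAN18, against 2.72 and 2.35 times with the empty vector. The FPKM of AQP3 was 3.13 and 1.74 times that of AQP1 with ZSCAN18, against 1.16 and 1.18 times with the empty vector. AQP1 and AQP3 thus stood close together in the empty vector libraries and apart in the ZSCAN18 libraries.

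Summed over the 14 channel genes of the family, aquaporin FPKM came to 8.68 and 8.11 in the ZSCAN18 libraries, against 20.2 and 19.7 in the empty vector libraries. The mean sum with ZSCAN18, 8.40 ± 0.402, was 42.1% of the mean sum with the empty vector, 19.95 ± 0.391 (SD, n = 2 each). AQP5 held 64.8 and 62.5% of the sum with ZSCAN18, against 57.9 and 54.7% with the empty vector. AQP1 held 6.18 and 11.8% with ZSCAN18, against 18.3 and 19.6% with the empty vector, and AQP3 held 19.3 and 20.5% against 21.3 and 23.2%.

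**Figure D2:**
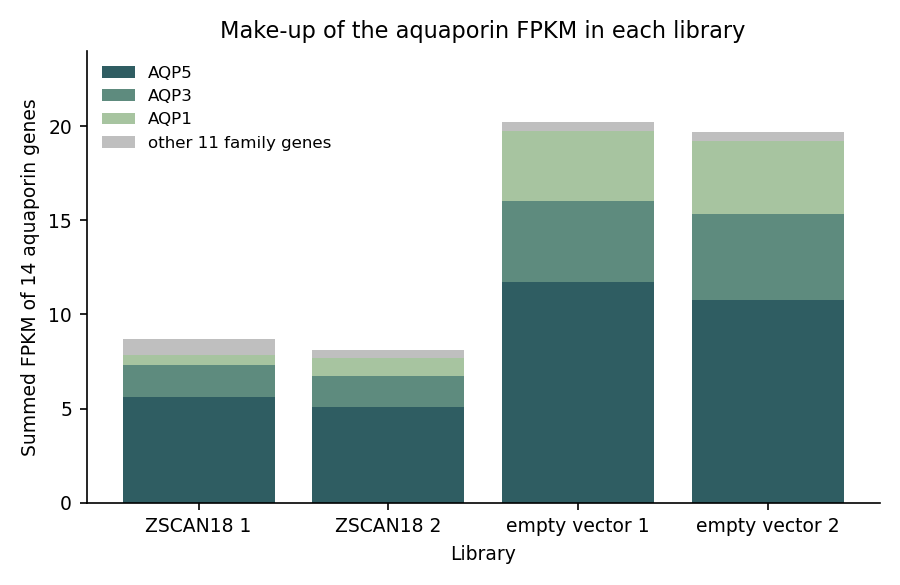
Stacked bars of the FPKM of AQP5, AQP3, AQP1 and the other 11 channel genes of the family in each library, from 0. The bars reach 8.68 and 8.11 in the ZSCAN18 libraries, against 20.2 and 19.7 with the empty vector, and AQP5 is the largest block in each.

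In the limma fit over all 11822 tested genes, 3 of the 8 members were tested, 3 were called lower at an adjusted p under 0.05 and 0 were called higher. In that fit 1.77% of all tested genes were called, 115 lower (0.973%) and 94 higher (0.795%); with median-of-ratios scaling of the libraries 227 were lower and 92 higher, so that 28.8% of calls were higher, beside 45% as deposited. Because the members were picked from this contrast, nothing is read from their count. By fold change AQP1 was the 20th lowest, AQP3 the 69th lowest and AQP5 the 89th lowest of the tested genes. Groups that did not overlap, with ZSCAN18 lower, were seen in these 3 members and in 24.4% of all tested genes, and 60.2% of all tested genes had groups apart in either direction. On the plain ratio of FPKM, the log2 fold changes in the authors' deposited table were -2.34 for AQP1, -1.41 for AQP3 and -1.07 for AQP5. The authors' deposited table marks these 3 members as significant and lower, a mark given in either direction to 1.69% and as lower to 0.733% of the 30288 genes with signal, and gives them q-values of 1.34e-07, 0.000571 and 0.00292. For the other 5 members the authors' deposited table gives a q-value of 1. The mark is not a call at a q under 0.05, since 298 of the 512 marked genes have a q of 0.05 or more. Of the marked genes 0 had an absolute log2 fold change under 1, a value close to the -1.07 of AQP5. The rule of the mark is not stated in the labels or headers. The limma calls of all 3 members ended when any 1 library was left out, while their fold changes stayed negative, and with a pseudocount of 0.1 the fold change of AQP1 was -2.24 and was not called.

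**Figure D3:**
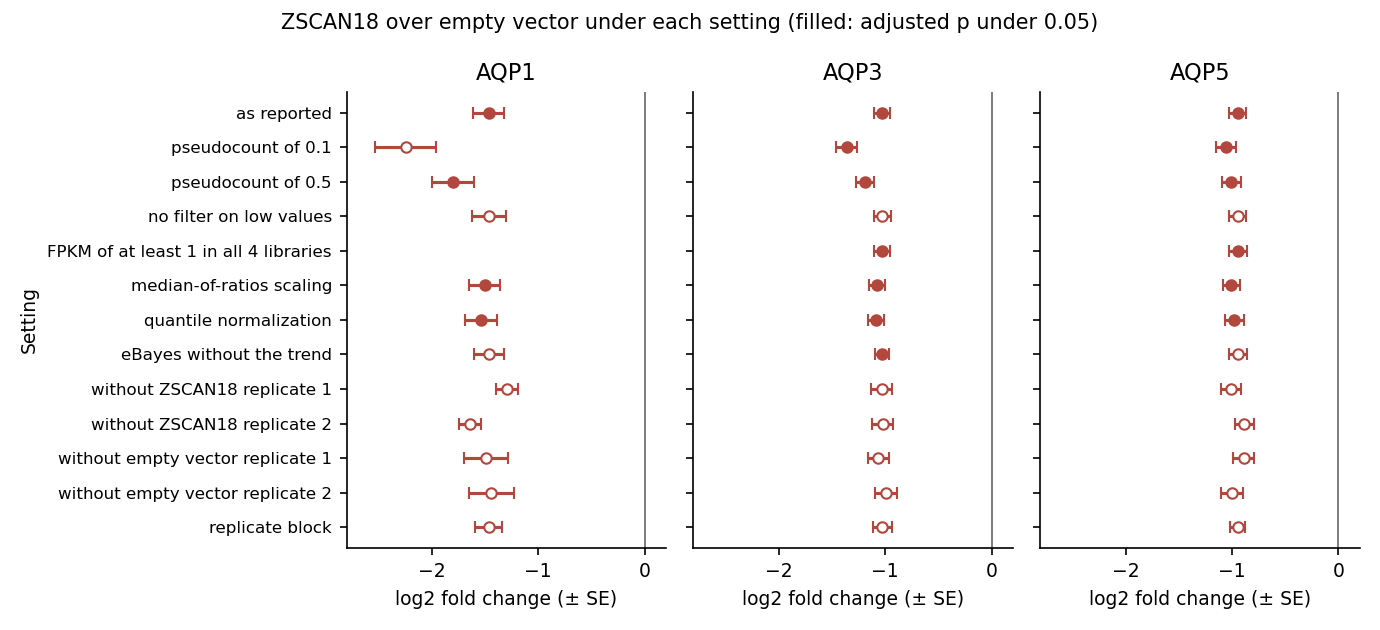
Log2 fold change of ZSCAN18 over empty vector with its standard error for AQP1, AQP3 and AQP5 as reported and under each alternative setting; filled points had an adjusted p under 0.05 over all tested genes, and the line marks 0. All points lie left of 0, those of AQP1 between -2.24 and -1.29, and the points of every fit that leaves out a library are open; AQP1 has no point where an FPKM of 1 was required in all 4 libraries.

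**Figure D4:**
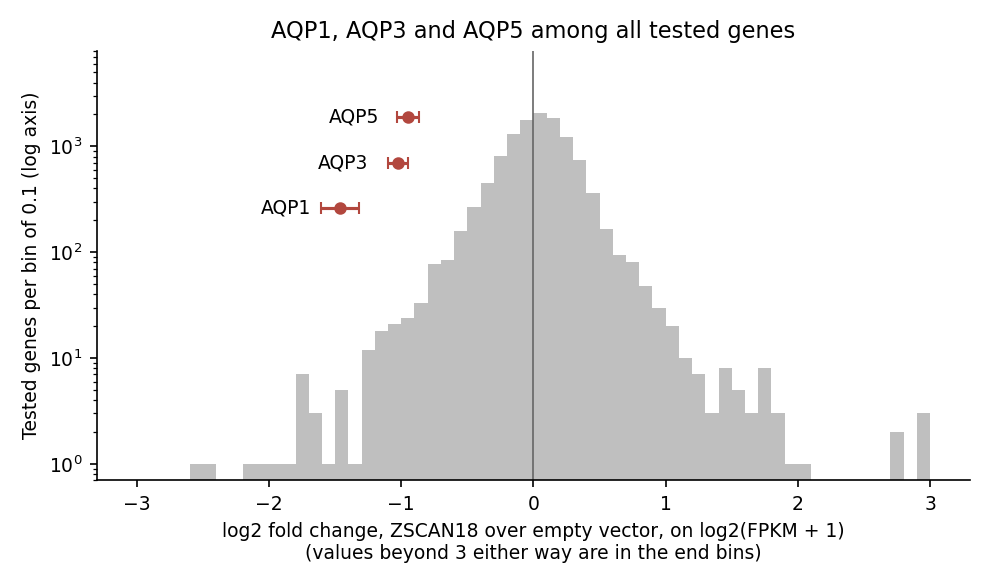
Histogram of the log2 fold change of ZSCAN18 over empty vector on log2(FPKM + 1) for all 11822 tested genes (number of genes per bin on a log axis), with AQP1, AQP3 and AQP5 as points with their standard error, placed at arbitrary heights. The 3 points, at -1.46, -1.03 and -0.95, lie in the left tail of the distribution.

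The 3 genes lie on different chromosomes, and their promoters were compared because all 3 were lower with ZSCAN18. RefSeq promoter windows (GRCh38.p14) were found for 7 of the 8 members, AQP11 being the member without an entry. The 250 bases before the start of AQP1 (chr7:30911603-30911852, plus strand), AQP3 (chr9:33447594-33447843, minus strand) and AQP5 (chr12:49961622-49961871, plus strand) are printed below 5′ to 3′ along the gene. Capitals mark every match, on either strand, to the GC box GGGCGG, the TATA box TATAAA, the CCAAT box CCAAT and the palindromic E-box CACGTG; neighbouring GC boxes may overlap.
AQP1: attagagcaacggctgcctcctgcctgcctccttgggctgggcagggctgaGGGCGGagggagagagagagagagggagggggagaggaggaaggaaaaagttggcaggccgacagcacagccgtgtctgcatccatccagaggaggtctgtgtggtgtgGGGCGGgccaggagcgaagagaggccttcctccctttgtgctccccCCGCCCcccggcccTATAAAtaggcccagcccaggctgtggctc
AQP3: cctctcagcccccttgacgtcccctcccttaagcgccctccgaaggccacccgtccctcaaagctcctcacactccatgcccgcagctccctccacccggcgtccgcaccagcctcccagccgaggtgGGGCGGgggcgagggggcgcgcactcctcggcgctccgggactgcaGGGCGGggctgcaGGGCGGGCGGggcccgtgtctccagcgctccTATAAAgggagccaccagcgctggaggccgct
AQP5: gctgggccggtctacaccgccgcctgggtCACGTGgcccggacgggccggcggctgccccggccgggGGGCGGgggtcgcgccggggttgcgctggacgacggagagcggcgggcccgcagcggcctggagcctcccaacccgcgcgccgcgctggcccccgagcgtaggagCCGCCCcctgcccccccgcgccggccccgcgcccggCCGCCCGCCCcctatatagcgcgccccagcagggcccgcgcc
The start used by RefSeq was the deposited start of AQP1 and AQP5 and lay 3 bases from that of AQP3. The GC box occurred 3 times in the AQP1 window, 4 times in that of AQP3 and 4 times in that of AQP5, and it is present in 42.6% of 35093 windows of the same length. It had 0 matches in the windows of AQP4, AQP7, AQP9 and AQP10, genes at or near no signal in NCI-N87. The GC content of those windows was lower, from 30.4 to 60.8%. Neither GC content nor expression was matched here, and a relation of GC boxes to ZSCAN18 was not tested. AQP1 and AQP3 each held 1 TATA box, present in 10.7% of windows, and AQP5 held 1 E-box, present in 6.34%. A TATA box also stood in 1 of the AQP4 windows and an E-box in that of AQP10, genes with no signal in NCI-N87. None of these 3 windows held a CCAAT box, present in 32.0% of all windows. The GC content was 65.2% for AQP1, 73.6% for AQP3 and 84.4% for AQP5, against a median of 58.0% over all windows. The AQP5 window held 41 CpG dinucleotides, that of AQP3 23 and that of AQP1 8, beside a median of 11. A match is a description of these letters and not a binding site.

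AQP3 and AQP7 lie 38.5 kb apart on chromosome 9, on the same strand. The other tested genes within 100 kb of AQP3 were NOL6, a nucleolar protein gene, with a log2 fold change of -0.05, and NFX1, a zinc finger gene, with 0.06, and 0 of these 2 were called or had an unadjusted p under 0.05 in limma, a level that 26.8% of all tested genes passed. AQP5 lies between AQP2 and AQP6, and its tested neighbours RACGAP1, a regulator of cell division, and ASIC1, an acid-sensing ion channel, had log2 fold changes of 0.28 and -0.36 and were not called (limma adjusted p = 0.0886 and 0.0898), though both of these 2 had an unadjusted p under 0.05. AQP1 had 0 tested neighbours of 4 within 100 kb. AQP5 overlaps AC025154, a clone-named gene on the opposite strand, which was listed at 0.169 and 0.143 FPKM with ZSCAN18, against 1.05 and 0.798 FPKM with the empty vector. It was lower together with AQP5. With strand not given, reads in the stretch that the genes share cannot be told apart, and whether their exons overlap was not tested. AC004691, which overlaps AQP1 on its own strand, had no signal with ZSCAN18, and 0.1999 FPKM and no signal with the empty vector.

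For each of the 3 members, the tested genes whose centred log2(FPKM + 1) values lay nearest over the 4 libraries were listed, by root mean square distance. Nearest to AQP3 were KRT4, a keratin of stratified epithelia (distance 0.00779), IGFL2, a secreted growth factor-like protein (0.0139), and SP6, a transcription factor of the SP family (0.0168). KRT4 stood at 17.0 and 16.7 FPKM with ZSCAN18, against 34.2 and 36.5 FPKM with the empty vector. Nearest to AQP5 were TNC, the matrix protein tenascin-C (0.0455), TESC, a calcium-binding protein (0.050), and GJB2, a gap junction connexin (0.055). AQP1 lay nearest to the protease inhibitor SERPINB3 (0.0607), with OASL, an interferon-induced protein, at 0.111, and CEMIP, needed for degrading hyaluronan, at 0.121. SERPINB3 was at 0.463 and 0.681 FPKM with ZSCAN18, against 3.43 and 3.60 FPKM with the empty vector. Over 4 libraries in 2 groups, such likeness mostly repeats the size of the group difference.

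Some ion transporters of secretory epithelium also differed between the groups, and a link to the aquaporin levels was not tested. The list was chosen with earlier results of these data known, so its counts are a description and support nothing. Of 24 listed genes 14 were tested, of which 3 fell, 1 rose and 10 did not pass over all genes tested in limma. The median log2 fold change of the 14 was -0.16, beside 0.04 for all tested genes, of which 0.973% fell and 0.795% rose. ANO1, a calcium-activated chloride channel, had an FPKM of 3.31 and 3.70 with ZSCAN18, against 8.34 and 9.005 with the empty vector, a log2 fold change of -1.10 (SE 0.083, limma adjusted p = 0.0357). SLC26A9, an anion transporter of gastric and airway epithelium, had 1.87 and 1.88 FPKM with ZSCAN18, against 4.17 and 3.77 FPKM with the empty vector (log2 -0.79, SE 0.082, limma adjusted p = 0.0420). SLC12A2, the basolateral sodium-potassium-chloride cotransporter, had 7.38 and 6.88 FPKM with ZSCAN18 and 11.5 FPKM in both empty vector libraries (log2 -0.62, SE 0.064, limma adjusted p = 0.0416). In each of these 3 genes the groups did not overlap, as in 24.4% of all tested genes with ZSCAN18 lower and 60.2% in either direction. The 3 were named because they were called, so this adds nothing to the calls. ATP1B3, a beta subunit of the sodium pump, rose, with 59.8 and 58.4 FPKM with ZSCAN18, against 40.4 and 40.9 FPKM with the empty vector (log2 0.53, limma adjusted p = 0.0383). The chloride channel CFTR was listed at no signal and 0.00136 FPKM with ZSCAN18, against 0.00422 and 0.00799 FPKM with the empty vector. The count of 4 called genes became 1 without the variance trend and 0 when any 1 library was left out, without a filter on low values and with the replicate number as a block.

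**Figure D5:**
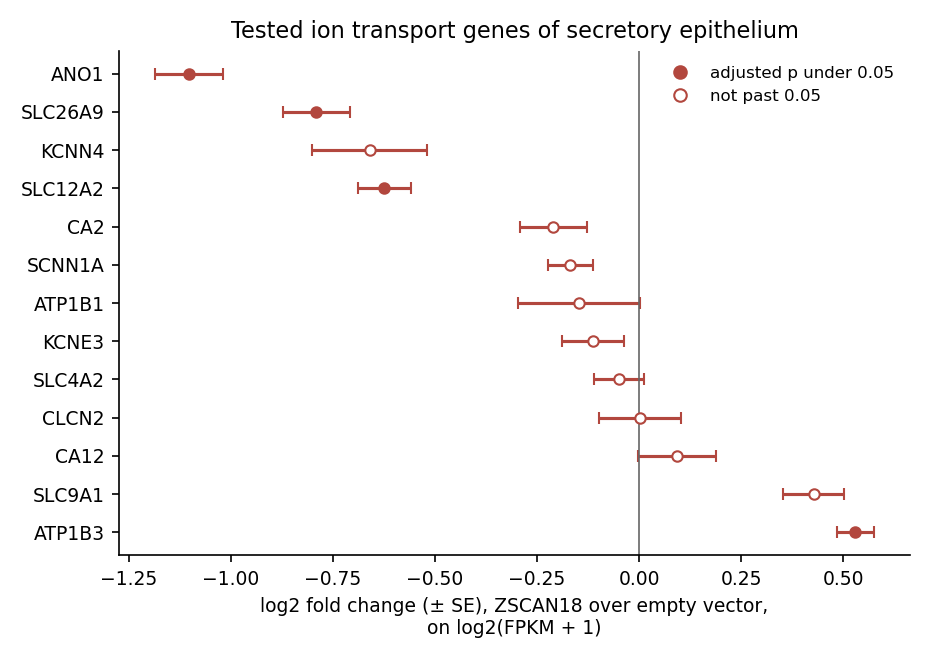
Log2 fold change of ZSCAN18 over empty vector on log2(FPKM + 1), with its standard error, for 13 of the 14 tested genes of the ion transport list; filled points passed an adjusted p of 0.05. ANO1 at -1.10, SLC26A9 at -0.79 and SLC12A2 at -0.62 lie below 0, ATP1B3 at 0.53 lies above it, and the open points did not pass.

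The other lists of related genes held no called gene in this fit. Over all tested genes 1.77% were called and 26.8% had an unadjusted p under 0.05 in limma. With so low a share called, nothing is read from the absence of calls in short lists. For glycerol metabolism, which aquaglyceroporins serve, 0 of 9 tested genes passed, and 2 had an unadjusted p under 0.05 in limma, with a median log2 fold change of 0.03. The mitochondrial glycerol phosphate dehydrogenase GPD2 stood at 15.4 and 15.5 FPKM with ZSCAN18, against 14.7 and 15.2 FPKM with the empty vector. In the osmotic response 0 of 14 passed and 4 had an unadjusted p under 0.05 (median -0.05). The kinase STK39, which acts on ion cotransporters, had the highest FPKM of that list, 28.4 and 30.2 with ZSCAN18 against 38.8 and 39.3 with the empty vector, and did not pass (log2 -0.40, limma adjusted p = 0.0604). NFAT5, the transcription factor of the response to high salt, named after its value was seen, stood at 4.01 and 3.65 FPKM with ZSCAN18, against 2.58 and 1.39 FPKM with the empty vector, and did not pass (log2 0.72, limma adjusted p = 0.149). Among genes that make or remove hydrogen peroxide 0 of 13 passed and 5 had an unadjusted p under 0.05, with a median of -0.07. The peroxiredoxin PRDX1 was the highest of these, at 484 and 490 FPKM with ZSCAN18 against 442 and 451 FPKM with the empty vector, and did not pass (limma adjusted p = 0.159). GPX1, a glutathione peroxidase chosen after its value was seen, had 26.6 and 34.4 FPKM with ZSCAN18, against 8.54 and 11.5 FPKM with the empty vector (log2 1.52, limma adjusted p = 0.0566). Of 3 tested transporters of lactate and glucose 0 passed and 1 had an unadjusted p under 0.05; the glucose transporter SLC2A1 had a log2 fold change of 0.35 (limma adjusted p = 0.0540).

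The cell identity behind these values was read from markers. The 5 epithelial markers EPCAM, CDH1, KRT8, KRT18 and KRT19 were all expressed, with a summed FPKM of 3241 and 3393 with ZSCAN18, against 3926 and 3660 with the empty vector. KRT18 was the 1 of these that fell (log2 -0.39, limma adjusted p = 0.0408). Of 5 parietal cell markers 4, including both subunits of the proton pump (ATP4A and ATP4B), had no signal in any library, and the remaining one, SLC26A7, had 0.1004 and 0.171 FPKM with ZSCAN18, against 0.136 and 0.175 FPKM with the empty vector. Of 4 markers of the gastric surface 0 reached the test, with sums of 0.222 and 0.179 FPKM with ZSCAN18, against 0.106 and 0.353 FPKM with the empty vector. The intestinal factor CDX2 stood at 13.9 and 15.1 FPKM with ZSCAN18, against 16.4 and 17.0 FPKM with the empty vector. It did not pass (limma adjusted p = 0.175). CDX2 was the highest of 7 intestinal markers, of which 2 were tested. The other tested one, VIL1, lay between 2.27 and 3.004 FPKM and did not pass (limma adjusted p = 0.823). Those not tested reached at most 0.363 FPKM in any library, and CDX1 had no signal. CDX2 alone is therefore not read as an intestinal identity. The chief and pyloric gland markers, a list chosen because AQP5 is found in pyloric glands, summed to 1.79 and 0.998 FPKM with ZSCAN18. With the empty vector they summed to 1.15 and 1.77 FPKM, so these sums overlapped. Nearly all of each sum was BHLHA15, at 1.79 and 0.969 FPKM with ZSCAN18, against 1.15 and 1.72 FPKM with the empty vector. The other markers of that list reached at most 0.0401 FPKM in any library. Sums for adipocytes, a site of AQP7, were 0.330 and 0.136 FPKM with ZSCAN18, against 0.287 and 0.429 FPKM with the empty vector. Those for hepatocytes, a site of AQP9, were 8.87 and 11.5 FPKM with ZSCAN18, against 8.50 and 12.1 FPKM with the empty vector. SERPINA1 made up most of these sums, at 7.54 and 10.1 against 8.37 and 11.1 FPKM in the same order. Leukocyte markers, for another site of AQP9, summed to 2.38 and 2.70 FPKM with ZSCAN18, against 2.21 and 3.29 FPKM with the empty vector. LYZ made up most of them, at 1.70 and 1.97 against 1.85 and 1.88 FPKM. Fibroblast markers summed to 2.58 and 1.99 FPKM with ZSCAN18, against 1.83 and 0.789 FPKM with the empty vector.

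Markers of the cells best known for AQP1 were at low levels. The 5 endothelial markers summed to 0.226 and 0.116 FPKM with ZSCAN18, against 0.384 and 0.413 FPKM with the empty vector, and 0 of 5 reached the test. TEK, the receptor with the highest mean of that list, had 0.0489 and 0.0525 FPKM with ZSCAN18, against 0.263 and 0.243 FPKM with the empty vector, so it was lower together with AQP1; its part in the AQP1 result was not tested. Without TEK the other 4 markers summed to 0.177 and 0.0634 FPKM with ZSCAN18, against 0.121 and 0.170 FPKM with the empty vector, which overlap, so the lower sum rests on TEK. Of 5 erythroid markers 2 had no signal, among them ALAS2 of haem synthesis, and the list summed to 0.385 and 0.673 FPKM with ZSCAN18, against 0.199 and 0.484 FPKM with the empty vector.

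Some markers of stratified epithelium, where AQP3 is a known channel, were lower with ZSCAN18. Of 7 listed genes 6 were tested, of which 2 fell, 0 rose and 5 had an unadjusted p under 0.05, at a median log2 fold change of -0.42. Over all tested genes 0.973% fell, 26.8% had an unadjusted p under 0.05 and the median was 0.04. KRT5, a basal keratin, was at 2.49 and 3.50 FPKM with ZSCAN18, against 3.72 and 2.35 FPKM with the empty vector, so its groups overlapped. The summed FPKM of the list was 143 and 151 with ZSCAN18, against 203 and 208 with the empty vector. KRT13 fell to 6.26 and 5.87 FPKM with ZSCAN18, against 23.0 and 23.7 FPKM with the empty vector (log2 -1.79, SE 0.062, limma adjusted p = 0.0180), and KRT4 also fell (log2 -1.03, SE 0.058, limma adjusted p = 0.0249). IVL and DSG3, with log2 fold changes of -0.22 and -0.30, did not pass (limma adjusted p = 0.132 and 0.102), and TP63, the defining factor of that epithelium, reached at most 0.0161 FPKM in any library. The part of this list in the levels of AQP3 and AQP5 was not tested. It too was chosen with earlier results of these data known, so its counts are a description. The limma calls of KRT13, KRT4 and KRT18 ended when any 1 library was left out.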

How the data were processed

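The authors deposited FPKM per gene and library together with a linear fold (ratio), its log2 value, a p-value and a q-value, per the file headers. An FPKM of 0.0001 stands for no signal. The submitters' processing notes name DESeq2, edgeR 3.2.5, StringTie 1.3.4d, HISAT2 2.0.4, FastQC 0.10.1 and cutadapt 1.9, with no roles. Neither the model behind the deposited p-values nor the use of strand is stated in the labels or headers. Of the gene identifiers 58394 were found in GENCODE release 29 (GRCh38), 72.7% with the same start and end and 99.74% with starts at most 100 kb apart; deposited coordinates are therefore read as GRCh38. The log2 ratio of the summed FPKM differed from the deposited log2 column by more than 0.001 in 0 genes.

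FPKM are not counts, so log2(FPKM + 1) was modelled with limma 3.58.1 (R 4.3.3) for the 11822 genes that reached an FPKM of 1 in 2 or more libraries, with a group term and eBayes with an intensity trend. P-values are two-sided with Benjamini-Hochberg adjustment over all tested genes and a threshold of 0.05. With 2 libraries a group, the smallest exact permutation p is 0.333. The size of 1 fragment was taken as the most common FPKM times length between 0.01 and 0.2 in genes with 1 exon; just 13.7 to 21.7% of values were whole multiples of it to within 0.02, so fragments were not recovered and depth is an estimate.

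The members and lists were chosen with earlier results of these data known. By rule the text names all 8 members, the called genes and up to 3 genes with the highest FPKM of each related list, the highest marker of a cell type (where that list is described by gene), and for likeness the 3 nearest symbols with a mean FPKM of 2 or more. Outside the rule, and chosen after their values were seen, are CFTR, NFAT5, GPX1, CLNS1A, KRT13, KRT5, KRT18, DSG3, TP63, ATP4A, ATP4B, ALAS2, EPCAM, CDH1, KRT8, VIL1, CDX1 and the neighbours of AQP3, AQP5 and AQP1. Alternatives were the pseudocount, the filter, the scaling, the variance model, each library left out and a replicate block. Protein sequences were not used here, and some genes of the related and marker lists are not reported here by name.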

Additional observations from a re-analysis of the deposited data

How the results depend on the processing

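The fold changes of AQP1, AQP3 and AQP5 stayed negative under every alternative run, from -2.24 to -1.29, from -1.36 to -0.99 and from -1.06 to -0.88 on the log2 scale. AQP1 was called in 3 of 11 alternatives, AQP3 in 6 of 12 and AQP5 in 5 of 12. With a pseudocount of 0.1 AQP1 had -2.24 and was not called. Without a filter on low values 30288 genes were tested, 0 members were called (AQP1 -1.46, AQP3 -1.03, AQP5 -0.95), 1 gene was called higher and 0 lower over all genes (limma, 4241 at an unadjusted p under 0.05), and 0 in the ion transport list. With a filter of an FPKM of 1 in all 4 libraries AQP1 was not tested, and 2 genes of the hydrogen peroxide list and 1 of the lactate and glucose transporters were called. Median-of-ratios scaling gave 227 lower and 92 higher genes (115 and 94 without it), with 1 call each in the osmotic and hydrogen peroxide lists. Quantile normalization gave 1 call among the lactate and glucose transporters. Without the variance trend 50 genes were higher and 49 lower, 1 member (AQP3) and 1 ion transport gene were called, and AQP1 (-1.46) and AQP5 (-0.95) were not. Leaving out each library in turn gave 0 called members, 0 to 1 genes higher and 0 lower (limma, 2106 to 2387 at an unadjusted p under 0.05), and 0 in the ion transport list, with fold changes from -1.64 to -1.29 for AQP1, -1.06 to -0.99 for AQP3 and -1.01 to -0.88 for AQP5; in these fits the lone library is assumed to vary like the other group. With the replicate number as a replicate block 1 gene was higher and 0 lower (limma, 2628 at an unadjusted p under 0.05), 0 members and 0 ion transport genes were called, and AQP1, AQP3 and AQP5 had -1.46, -1.03 and -0.95. The deviations of same-numbered libraries correlated at 0.034, so the numbers were not taken to pair the libraries. Which sample each ZSCAN18 column holds is not known, so the column numbers used in the block and in this correlation may not be the sample numbers. The causes of these changes were not tested. By the estimated depth AQP7 and AQP9 rest on 0 to 2 fragments a library and AQP4 and AQP10 on 0. No difference between the groups is therefore detectable for these genes. AQP11 rests on 15 to 19. Of the 3 tested members AQP1 has the fewest fragments at its lowest value, 13 to 36 beside 35 to 72 for AQP3. At the highest values the ranges of AQP1 and AQP3 overlap, so no order is given there.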
